A study of Mus musculus with 4 samples.

Results

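The histone H1 and H2A cluster genes described here are 8 genes, the linker histone genes Hist1h1a, Hist1h1b, Hist1h1c, Hist1h1d and Hist1h1e and the core histone genes Hist1h2ab, Hist1h2ae and Hist1h2ap. They were taken by symbol from the 31053 features shared by 4 single-cell libraries, and the rule that lists them uses their symbols alone. The libraries hold cells taken by sorting from tumours raised in wild-type C57/bl6 mice by placing 300000 TC-1 cells, a mouse lung epithelial tumour line, under the skin. Cisplatin, a platinum compound that crosslinks DNA, or PBS was given into the abdomen once tumours measured 40 mm². Each of the PBS, cisplatin day 1, day 3 and day 7 groups is 1 library, the cisplatin groups having received 1 dose of 6 mg/kg that many days before collection. The number of mice behind each library is not stated, the PBS library has no stated day, and 1 label calls its source untreated.

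Linker histones bind the DNA that enters and leaves a nucleosome and help to fold chromatin, while H2A pairs with H2B inside the nucleosome core. Most genes of this cluster are transcribed when DNA is replicated, and their messages typically end in a stem-loop that binds Slbp rather than in a poly-A tail. Hist1h1c is known from other cells also to give messages with a poly-A tail outside of division. The 10x 3' kit used here primes on poly-A, so the counts cover only messages it could capture, and the levels below are compared within a gene and not between genes.

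The deposited values are counts of unique molecular identifiers (UMIs, 1 per captured message), summed here over cells and given as counts per 1e6 UMIs of the sum (CPM). The libraries held 16153484 to 82493626 UMIs in 2981 to 10745 barcodes, and 2705 to 7425 cells per library were kept. The sort was for CD45+, lineage-negative, CD90+ and CD127+ innate lymphoid cells, but most kept cells did not carry that profile. Cells with at least 10 UMIs of 7 phagocyte markers and no T or NK marker made up 90.0% of kept cells in PBS, 67.2% on day 1, 62.6% on day 3 and 77.7% on day 7. In the non-cycling phagocytes among them Lyz2 had 6712 to 17426 CPM and C1qa had 5367 to 6494 CPM, while Thy1 (CD90) stayed at 4.72 to 9.80 CPM and Cd3e was at 0 by the gate. T cells made up 1.74% to 8.04% of kept cells, and a gate for group 1 innate lymphoid cells took 16 to 48 cells per library. Cells with signals of several classes made up 2.15% in PBS, 11% on day 1, 10.8% on day 3 and 5.84% on day 7, and 4 to 32 barcodes were shared by any 2 libraries.

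Cells were called cycling by at least 5 UMIs of 32 S and M phase marker genes making up at least 0.1% of the cell's UMIs, and non-cycling by at most 1 such UMI; no member is among these markers. Cycling cells made up 23.1% of phagocytes in PBS (1545 cells), 4.96% on day 1 (228 cells), 3.96% on day 3 (117 cells) and 13.4% on day 7 (282 cells). After each cell was thinned to 2000 UMIs the shares were 23.1%, 4.86%, 4.0% and 13.7% in the same order.

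All 8 genes are single-exon genes on mouse chromosome 13 (build mm10). Hist1h1b lies at chr13:21779883-21780625 on the minus strand, Hist1h2ap at chr13:21833026-21833507 on the minus strand and Hist1h1c at chr13:23738808-23740367 on the plus strand, and the other members lie between chr13:23553262 and 23764406. The 250 bases before the RefSeq start of these 3 genes are shown because the cells below set them apart: Hist1h1b was high in cycling cells, Hist1h1c was not called between cycling and non-cycling phagocytes with all 4 libraries, and Hist1h2ap was higher on day 7 than in PBS within cycling phagocytes, though not over all kept cells. Sequences are from RefSeq (build GRCm38.p6), which lists a promoter for 8 of 8 members. Capitals mark a CCAAT box (CCAAT), the H1 box AAACACA or the TATA box TATAAA on either strand.
Hist1h1b (H1f5, chr13:21780626-21780875, minus strand): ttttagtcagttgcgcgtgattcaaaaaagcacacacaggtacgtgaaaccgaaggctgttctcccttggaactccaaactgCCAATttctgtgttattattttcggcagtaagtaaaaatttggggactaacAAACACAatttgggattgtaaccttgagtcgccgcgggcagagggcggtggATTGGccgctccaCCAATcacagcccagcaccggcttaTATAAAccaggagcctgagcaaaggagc
Hist1h1c (H1f2, chr13:23738557-23738806, plus strand): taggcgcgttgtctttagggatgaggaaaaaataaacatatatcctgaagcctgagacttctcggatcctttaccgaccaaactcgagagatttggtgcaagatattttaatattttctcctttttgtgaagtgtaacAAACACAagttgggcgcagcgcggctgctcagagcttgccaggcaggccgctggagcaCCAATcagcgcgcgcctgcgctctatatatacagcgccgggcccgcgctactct
Hist1h2ap (H2ac24, chr13:21833476-21833725, minus strand): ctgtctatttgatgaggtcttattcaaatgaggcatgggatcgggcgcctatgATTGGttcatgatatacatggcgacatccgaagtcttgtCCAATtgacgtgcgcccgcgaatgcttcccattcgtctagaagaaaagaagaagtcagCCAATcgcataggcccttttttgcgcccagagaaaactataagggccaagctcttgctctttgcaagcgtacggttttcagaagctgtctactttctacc
The H1 box starts 117 bases before the start in Hist1h1b and 112 in Hist1h1c, and is also found in Hist1h1d, Hist1h1e and Hist1h2ab. The letters are not in the windows of Hist1h1a, Hist1h2ae and Hist1h2ap. CCAAT is in 8 of 8 windows, and TATAAA is in 6, all but those of Hist1h1c and Hist1h2ap. Among 32851 promoters of the same length, AAACACA was found in 7.18%, CCAAT in 37.4% and TATAAA in 13.6%. Among 63 promoters of histone cluster genes the shares were 14.3%, 85.7% and 55.6% in the same order. The octamer ATTTGCAT was found in Hist1h2ab and Hist1h2ae (1.74% of all promoters and 22.2% of histone cluster promoters). TTTGGCGC and TTTCCCGC were found in no member (0.514% and 1.07% of all promoters).

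Some members share sequence with near copies, so that reads can be lost or assigned to another gene. In the mm10 annotation GENCODE vM21, 92.6% of the 75-base windows of the Hist1h2ap transcript also occur in another gene, against 55.4% for Hist1h2ab, 34.4% for Hist1h2ae and 28.4% for Hist1h1e. The share was 6.66% for Hist1h1c, 1.47% for Hist1h1d and 0 for Hist1h1a and Hist1h1b. Hist1h1e also overlaps Hist1h2be on the same strand. Over the last 300 windows, nearest to the 3' end that the kit reads, the share was 100% for Hist1h1e and Hist1h2ap, 73.7% for Hist1h2ab, 34.7% for Hist1h2ae and 0 for the other members. Values of the 3 H2A genes and of Hist1h1e are therefore uncertain as values of 1 gene.

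Cycling phagocytes held more of 7 of the 8 members than non-cycling phagocytes, and Hist1h1c was the exception. Sums per library and state were compared with edgeR's quasi-likelihood test with the library as a block, 4 libraries on each side. Of 11314 genes tested, 28.2% were higher and 25.5% lower in cycling cells at an adjusted p under 0.05, so a call alone was common here. The median log2 fold change of the 8 members was 4.47. Hist1h1a and Hist1h2ab passed the test's filter on low counts through their cycling sums alone, so their calls are not independent of that filter. Hist1h1b, with 0.695 CPM in non-cycling cells on day 3, also needed its cycling sums to pass, so the same holds for its call. The p-values measure how the difference between states within a library varied over these 4 libraries. The libraries differ in treatment and are not replicates of 1 condition.

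Among the linker histones, Hist1h1b had 128, 99.7, 76.9 and 27.5 CPM in cycling phagocytes in PBS and on days 1, 3 and 7, against 3.37, 1.39, 0.695 and 1.05 CPM in non-cycling phagocytes. The lowest cycling value lay above the highest non-cycling one, with a log2 fold change of 5.70 ± 0.22 (SE; adjusted p = 2.78e-08). Hist1h1b would not have passed the filter on low counts on its non-cycling sums. Hist1h1a had 13.8, 9.90, 5.41 and 3.98 CPM in cycling cells, against 0.491, 0.507, 0.278 and 0.150 CPM in non-cycling cells. The groups did not overlap, and the log2 fold change was 4.41 ± 0.29 (adjusted p = 1.13e-06). The non-cycling values of Hist1h1a rest on 1 to 12 UMIs per library, and it passed the filter on low counts through its cycling sums alone.

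Hist1h1e and Hist1h1d differed by less. Hist1h1e had 46.7, 31.7, 35.4 and 22.3 CPM in cycling phagocytes, against 6.69, 5.91, 3.41 and 5.56 CPM in non-cycling phagocytes. It was higher in 4 of 4 libraries, by 2.59 ± 0.19 on the log2 scale (adjusted p = 2.28e-06). Hist1h1d had 21.2, 9.68, 13.8 and 5.17 CPM in cycling phagocytes, against 4.11, 3.34, 1.53 and 1.35 CPM in non-cycling phagocytes, and its log2 fold change was 2.15 ± 0.26 (adjusted p = 6.29e-05).

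The H2A genes gave few UMIs in non-cycling cells. Hist1h2ap had 236, 153, 78.1 and 326 CPM in cycling phagocytes, against 4.48, 3.63, 2.29 and 4.96 CPM in non-cycling phagocytes. Day 7 was its highest library in both states, and the log2 fold change was 5.50 ± 0.14 (adjusted p = 6.61e-09). Hist1h2ae had 166, 139, 64.3 and 41.8 CPM in cycling phagocytes, against 6.93, 4.27, 3.06 and 3.15 CPM in non-cycling phagocytes, a log2 fold change of 4.52 ± 0.18 (adjusted p = 2.89e-08). Hist1h2ab had 16.6, 13.7, 5.41 and 1.19 CPM in cycling phagocytes, against 0.491, 0.296, 0.0695 and 0 CPM in non-cycling phagocytes. The non-cycling values rest on 8, 7, 1 and 0 UMIs, and 0 on day 7 allows up to 0.451 CPM. Hist1h2ab was called higher in cycling cells (log2 fold change 5.31 ± 0.32, edgeR adjusted p = 6.09e-07), having passed the filter on low counts through its cycling sums alone.

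Hist1h1c had 105, 18.5, 46.9 and 95.5 CPM in cycling phagocytes, against 77.3, 55.6, 26.8 and 76.6 CPM in non-cycling phagocytes. The groups overlapped, and the log2 fold change was -0.05 ± 0.29 (adjusted p = 0.910). Within a library the log2 ratio of cycling over non-cycling cells was 0.44 in PBS, -1.59 on day 1, 0.80 on day 3 and 0.32 on day 7. The 95% interval excluded 0 in each library (exact conditional binomial intervals, which cover counting error only). On day 3, 32 of the 78 Hist1h1c UMIs in cycling phagocytes came from 1 cell, a spread between cells that the interval leaves out. Without the day 1 library the log2 fold change was 0.36 (adjusted p = 0.0403), so that library decides the call.

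**Figure D1:**
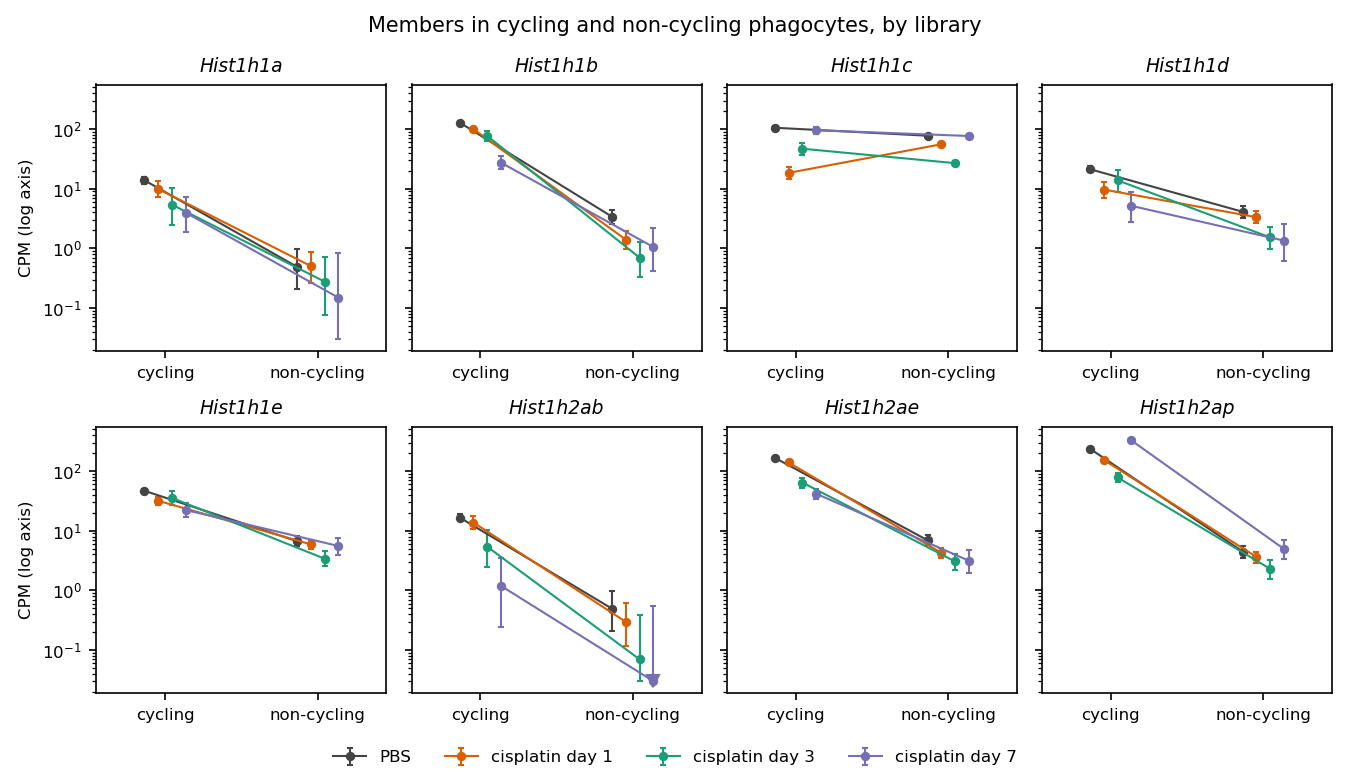
Level of each member in CPM (log axis) in cycling and non-cycling phagocytes, 1 line per library; bars are exact Poisson 95% intervals and a triangle at the axis foot marks 0 UMIs. Hist1h1c is the panel without a common fall towards non-cycling cells, and its day 1 line runs the other way (18.5 CPM in cycling and 55.6 CPM in non-cycling cells).

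Phagocytes between both gates held more than 1 marker UMI but were not called cycling. They had 6.41, 4.77, 3.05 and 5.76 CPM of Hist1h2ap and 4.45, 1.66, 1.42 and 1.08 CPM of Hist1h1b in PBS and on days 1, 3 and 7. These values lay closer to the non-cycling than to the cycling values in each library. Cycling cells were deeper than non-cycling cells, with a median of 9363 UMIs per cycling and 5166 UMIs per non-cycling cell in PBS. Thinned to 2000 UMIs, 25.6% of cycling and 0.810% of non-cycling PBS phagocytes held a Hist1h2ap UMI (48.2% and 2.34% unthinned). For Hist1h1c the thinned shares were 16.2% and 12.3%.

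Among cycling phagocytes, cells leaning to S phase markers held less Hist1h1c, Hist1h1e and Hist1h2ae than cells leaning to M phase markers. A cell leaned to S or M with at least 2 UMIs of one set of 15 markers and at least 2 times as many as of the other; the remaining cycling cells are called balanced. The test covered 6 of 8 members, Hist1h1a and Hist1h2ab having too few UMIs, and 3 were called lower in S-leaning cells and 0 higher. Over 8312 genes, 1.99% were called lower. The log2 fold changes were negative for all 6, with a median of -1.59.

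Hist1h2ae had 50.6, 21.1, 12.7 and 19.3 CPM in S-leaning cells in PBS and on days 1, 3 and 7, against 172, 185, 89.1 and 45.8 CPM in M-leaning cells. No values overlapped except that the S-leaning PBS value exceeded the M-leaning day 7 value, and the log2 fold change was -2.18 ± 0.27 (edgeR adjusted p = 0.00213). Hist1h1e had 15.6, 11.5, 12.7 and 9.67 CPM in S-leaning cells, against 53, 37.9, 39.0 and 27.5 CPM in M-leaning cells (log2 fold change -1.68 ± 0.20, adjusted p = 0.00171); each of its last 300 windows is shared with another gene. Hist1h1c had 20.4, 15.4, 9.50 and 19.3 CPM in S-leaning cells, against 142, 17.4, 79.3 and 130 CPM in M-leaning cells, with a log2 fold change of -2.28 ± 0.39 (adjusted p = 0.0114). The day 1 library stood apart here too, its M-leaning value being close to its S-leaning one. Hist1h1b, Hist1h1d and Hist1h2ap had log2 fold changes of -1.37, -0.78 and -1.50 and were not called (adjusted p = 0.119, 0.285 and 0.0947). Without PBS only Hist1h2ae was called (Hist1h1c adjusted p = 0.227, Hist1h1e 0.0809), without day 3 Hist1h1c was not called (adjusted p = 0.0713), and without day 7 there were 5 calls. S-leaning cells numbered 284, 64, 27 and 57 and M-leaning cells 1018, 97, 52 and 188 in PBS and on days 1, 3 and 7.

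Balanced cells, the cycling cells that leaned to neither marker set, often held the most. The 8 members together had 258, 85.5, 91.8 and 333 CPM in S-leaning cells, 1024, 703, 340 and 823 CPM in balanced cells and 788, 521, 408 and 519 CPM in M-leaning cells in PBS and on days 1, 3 and 7. Balanced cells were highest in PBS, on day 1 and on day 7, and M-leaning cells on day 3. Hist1h1c differed, with 51.2, 22.2, 18.9 and 47.4 CPM in balanced cells. In PBS its log2 ratio of balanced over M-leaning cells was -1.47 (95% interval -1.74 to -1.22).

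**Figure D2:**
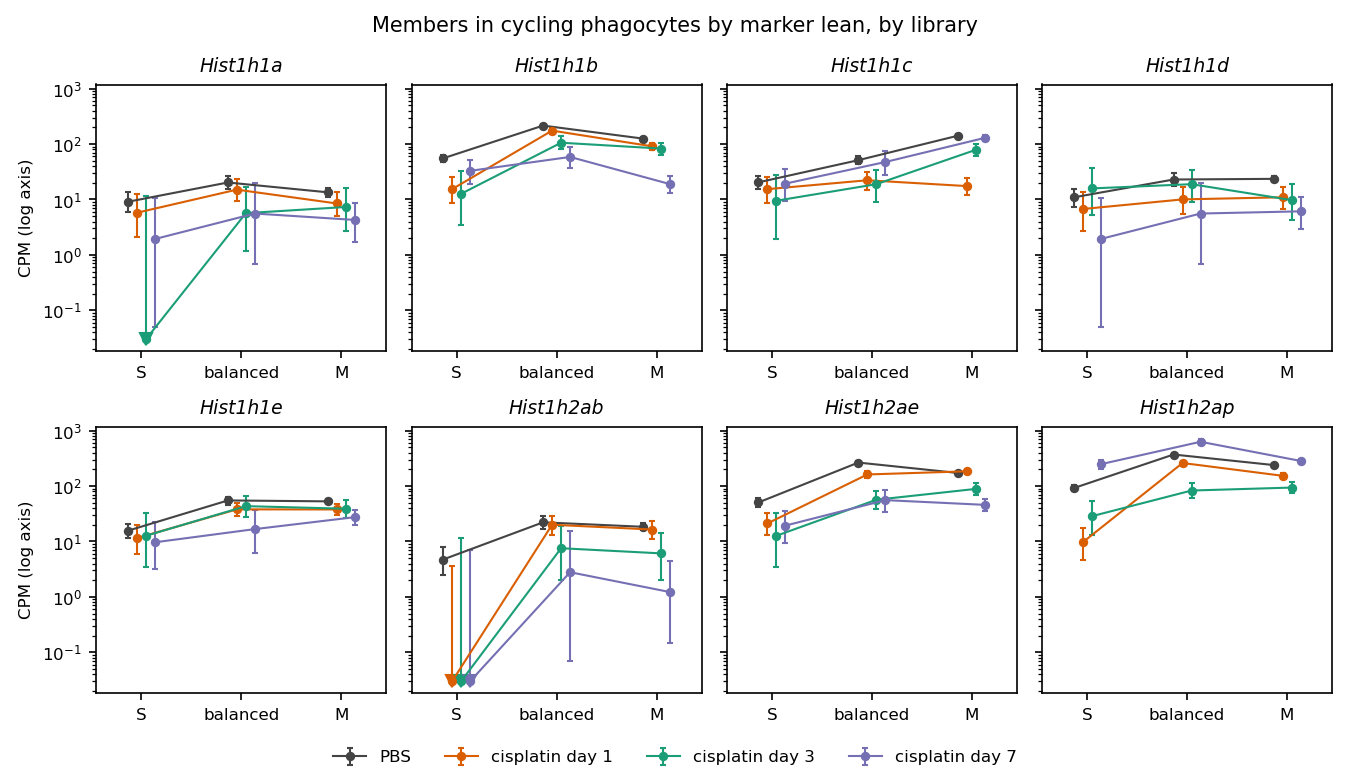
Level of each member in CPM (log axis) in cycling phagocytes leaning to S markers, balanced and leaning to M markers, 1 line per library; bars are exact Poisson 95% intervals and triangles mark 0 UMIs. Hist1h1b peaks in balanced cells in each library (216 CPM in PBS), whereas Hist1h1c climbs to M-leaning cells in all libraries but day 1.

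Over all kept cells the members were lower after cisplatin. With 1 library per group there is no test; ratios carry exact 95% intervals for counting error, and a change of 1.5-fold or more is counted. On day 1, 8 of 8 members were lower by that fold, against 4.5% of 14172 genes with at least 20 UMIs. On day 3, 8 of 8 were lower (17.3% of genes), and on day 7 it was 6 of 8 (14.3% of genes). No member was 1.5-fold higher at any day, against 19.8%, 20.4% and 21.9% of genes. The median log2 ratio of the members was -1.63 on day 1, -2.41 on day 3 and -2.28 on day 7, while the median of all genes was 0.14, -0.04 and 0.02.

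Hist1h2ab had 5.74 CPM over all kept PBS cells, 1.69 on day 1, 0.498 on day 3 and 0.650 on day 7. Hist1h1b had 43.9, 12.8, 7.75 and 6.50 CPM in the same order, and Hist1h2ae 58.4, 20.9, 7.78 and 12.6 CPM. The exceptions on day 7 were Hist1h1c, with 73.4 CPM on day 7 against 86.7 CPM in PBS, and Hist1h2ap, with 72.9 CPM against 78.9 CPM. The share of cycling phagocytes was 3.96% to 13.4% after cisplatin and 23.1% in PBS, with its lowest value on day 3, whereas Hist1h1a, Hist1h1b and Hist1h1d were lowest on day 7. The part of the cycling share in these levels was not tested.

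Within cycling phagocytes the day 1 ratios of 6 of 8 members lay nearer to 0 than over all kept cells, while Hist1h1c had -2.51, against -0.86 over all kept cells, and Hist1h1d had -1.13, against -1.09. On day 1, 3 of 8 members were 1.5-fold lower, against 4.87% of genes: Hist1h1c, Hist1h1d and Hist1h2ap. The 95% interval of Hist1h1c was -2.85 to -2.19, and the log2 ratio of Hist1h2ap was -0.62. Hist1h2ae, with 139 CPM on day 1 against 166 CPM in PBS, and Hist1h1b, with 99.7 CPM against 128 CPM, stayed within 1.5-fold. With TMM scaling the count on day 1 was 5, and the share of all genes called lower was 8.23%. That scaling moved the median of all genes in this comparison to -0.04, against 0.12 with library totals.

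On day 3, 7 of 8 members were 1.5-fold lower in cycling phagocytes (13.5% of genes), all but Hist1h1e, and on day 7 it was 6 of 8 (17.4% of genes), all but Hist1h1c and Hist1h2ap. No member was 1.5-fold higher (19.2%, 15.4% and 18.9% of genes on day 1, 3 and 7). On day 7 Hist1h1b fell to 27.5 CPM, against 128 CPM in PBS, a log2 ratio of -2.22 (95% interval -2.59 to -1.88). Hist1h2ab had 3 UMIs (1.19 CPM) on day 7, against 257 UMIs (16.6 CPM) in PBS, a log2 ratio of -3.80 (95% interval -6.09 to -2.24). The M-leaning share of cycling phagocytes was 66.7% on day 7, 44.4% on day 3 and 42.5% on day 1, against 65.9% in PBS. Within M-leaning cells alone Hist1h1b had 18.9 CPM on day 7, against 125 CPM in PBS, and Hist1h1c had 17.4 CPM on day 1, against 142 CPM in PBS.

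Within non-cycling phagocytes, members with at least 20 UMIs over both libraries were 1.5-fold lower in 2 of 7 cases on day 1 (3.37% of genes), 6 of 6 on day 3 (15.1%) and 3 of 6 on day 7 (19.1%), and none was 1.5-fold higher (10.8%, 16.5% and 13.3% of genes). Hist1h1c, with 386 to 1316 UMIs per library (at most 140 for any other member), had 77.3, 55.6, 26.8 and 76.6 CPM in PBS and on days 1, 3 and 7, with its lowest level on day 3. Monocyte-gated phagocytes, those with at least 3 UMIs of Ly6c2 and Plac8, numbered 719 on day 3 and 26 to 90 in the other libraries. Among non-cycling cells their Hist1h1c level was 27.8 CPM on day 3, and the remaining non-cycling phagocytes of day 3 had 26.5 CPM, against 77.6 CPM in PBS. The part of the monocyte-gated cells in the day 3 level was not tested.

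**Figure D3:**
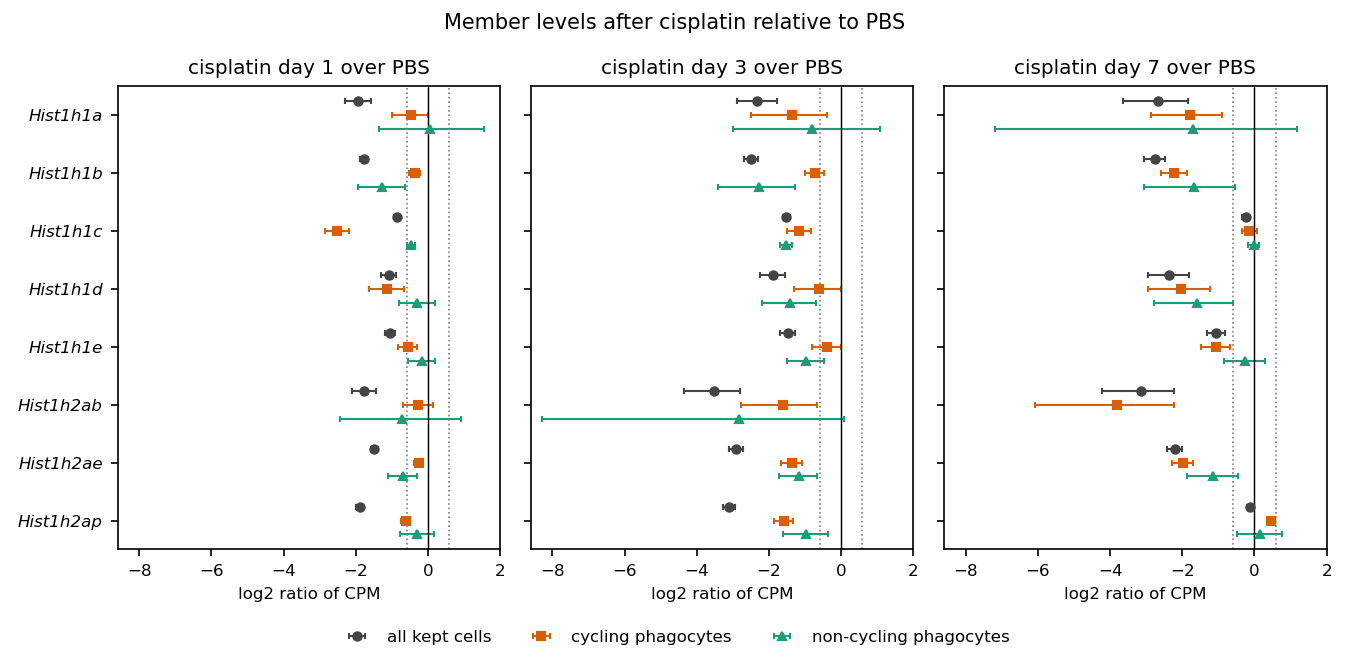
Log2 ratio of CPM for cisplatin day 1, 3 and 7 over PBS for each member in all kept cells, cycling phagocytes and non-cycling phagocytes; bars are exact 95% intervals for counting error and dotted lines mark 1.5-fold. On day 1, 6 of 8 members lie nearer to 0 within cycling phagocytes than over all cells, Hist1h1c being lowest at -2.51; Hist1h2ab on day 7 had 0 UMIs in non-cycling cells and has no point there.

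Hist1h2ap was the only member with a ratio above 0 in cycling phagocytes on day 7. In cycling phagocytes it had 326 CPM on day 7 (95% interval 304 to 349), against 236 CPM in PBS, a log2 ratio of 0.47 (0.36 to 0.58). It took 62.3% of the members' UMIs in cycling phagocytes on day 7, against 32.1% in PBS, and 32.2% on day 1 and 23.9% on day 3. The UMIs came from 115 of 282 cells, with at most 57 in 1 cell and 59.1% of them in the highest 10% of cells. In PBS 745 of 1545 cells held a UMI and the highest 10% held 46.9%. In non-cycling phagocytes of day 7, 32 of 1417 cells held one, and the median depth was 7673.5 UMIs in cycling and 4538 UMIs in non-cycling cells.

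Hist1h2ap was also counted in other cycling cells of that library. Cycling cells with signals of several classes had 220 CPM of Hist1h2ap on day 7, against 113 CPM in PBS, and cycling unclassified cells had 321 CPM, against 165 CPM. Cycling stromal cells of day 7, 17 in number, had 236 CPM of Hist1h2ap and 11.8 CPM of Hist1h1b (2 UMIs). S-leaning phagocytes had 248 CPM of Hist1h2ap on day 7, against 91.7 CPM in PBS, and M-leaning phagocytes had 285 CPM, against 240 CPM. Of 19 genes that share windows with it, 16 are in the files and 12 had at least 20 UMIs over the cycling phagocytes of both libraries; on day 7, 2 of these were 1.5-fold higher than in PBS and 6 were 1.5-fold lower (18.9% and 17.4% of all genes). The higher ones, named after their values were seen, were Hist3h2a, with 56.1 CPM on day 7 against 18.2 CPM in PBS (log2 ratio 1.62, 95% interval 1.32 to 1.92), and Hist1h2ag, with 10 UMIs (3.98 CPM) on day 7 against 17 UMIs (1.10 CPM) in PBS (1.86, 0.57 to 3.07). Among the lower ones were the members Hist1h2ab and Hist1h2ae. Whether reads of near copies moved to Hist1h2ap in that library was not tested.

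**Figure D4:**
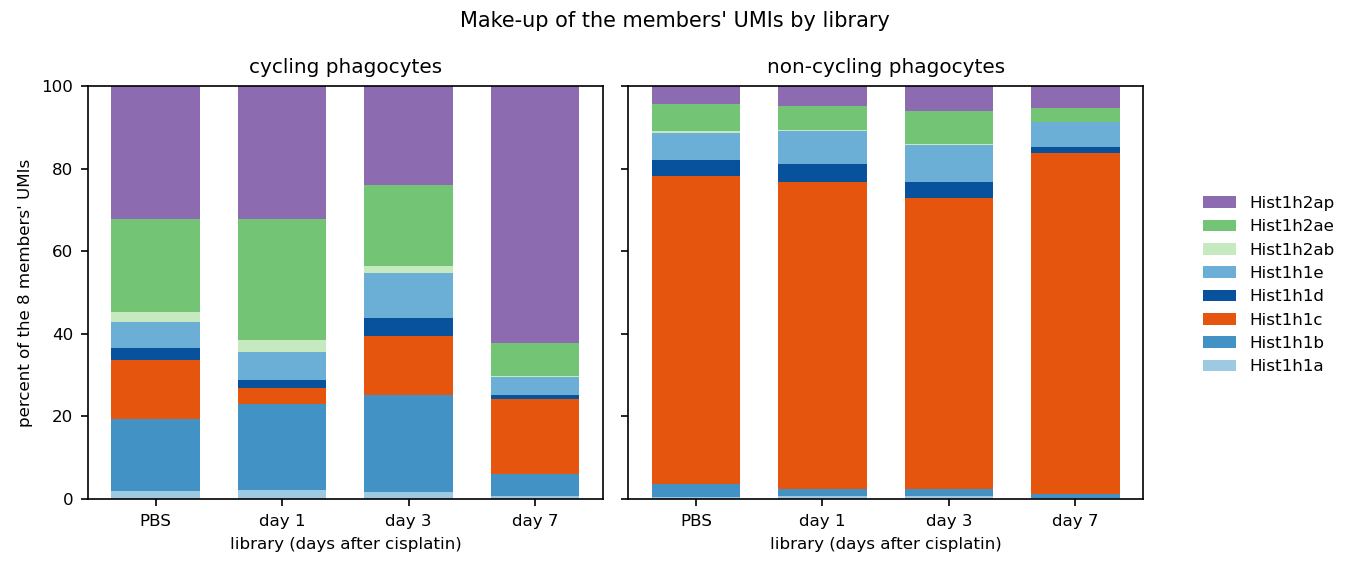
Percent of the 8 members' UMIs from each member in cycling phagocytes and in non-cycling phagocytes of the 4 libraries, with bars starting at 0. Hist1h2ap makes up 62.3% on day 7 and 32.1% in PBS in cycling phagocytes, and Hist1h1c makes up 14.3% in cycling and 74.4% in non-cycling phagocytes of PBS; a share depends on how well each message is captured and does not rank the genes.

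T cells outside the cycle were compared with phagocytes outside the cycle by the same edgeR test. The test covered 6 of 8 members, and 3 were called higher in T cells and 0 lower, where 21.1% of 9942 genes were called higher and 28.2% lower. Hist1h1e had 14.6, 30.9, 24.4 and 23.3 CPM in T cells in PBS and on days 1, 3 and 7, against 6.69, 5.91, 3.41 and 5.56 CPM in phagocytes. Its T cell values lay above the phagocyte values in 4 of 4 libraries (log2 fold change 2.15 ± 0.36, adjusted p = 4.65e-06), again for a gene whose 3' end windows are all shared. Hist1h1d had 19.4, 11.6, 7.12 and 5.83 CPM in T cells, against 4.11, 3.34, 1.53 and 1.35 CPM in phagocytes (log2 fold change 1.91 ± 0.49, adjusted p = 0.00134).

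These levels rest on few molecules, 3 to 24 UMIs of Hist1h1e and 1 to 7 of Hist1h1d per library in T cells. Hist1h1d would not have passed the filter on low counts on its phagocyte sums, so its call is not independent of that filter. Hist1h1b was also called, from 5, 4, 0 and 1 UMIs (log2 fold change 2.00 ± 0.66, adjusted p = 0.0124), and that call was lost without day 1 (adjusted p = 0.0806) and without the library block (adjusted p = 0.202). It too needed its T cell sums to pass the filter on low counts. Hist1h1c had 58.2, 65.8, 61.0 and 17.5 CPM in T cells, against 77.3, 55.6, 26.8 and 76.6 CPM in phagocytes, and was not called (log2 fold change 0.04 ± 0.25, adjusted p = 0.909). Hist1h2ae and Hist1h2ap were not called either (adjusted p = 0.241 and 0.633).

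Phagocyte messages were also counted in non-cycling T cells, where Lyz2 had 589 to 1731 CPM and C1qa 425 to 767 CPM. The level of Hist1h1e over all kept cells was 20, 9.68, 7.19 and 9.62 CPM, so its T cell level lay above that of the whole library on day 1, 3 and 7 but not in PBS. The part of free RNA in the T cell levels was not tested. Among non-cycling cells, Hist1h1c had 93.7, 70.2, 76.8 and 13.4 CPM in PBS and on days 1, 3 and 7 in T cells outside the regulatory, CD8 and gamma-delta gates (10, 15, 36 and 1 UMIs). Regulatory T cells had 24.5, 57.7, 57.1 and 16.0 CPM and group 1 innate lymphoid cells 61.9, 55.6, 23.1 and 30.6 CPM, from 1 to 17 UMIs per library. Monocyte-gated phagocytes had 23.2, 21.0, 27.8 and 26.7 CPM (2, 11, 100 and 4 UMIs), against 77.6, 56.4, 26.5 and 77.7 CPM in the other phagocytes. The exact Poisson 95% intervals of both phagocyte classes overlapped in PBS and on day 3, but not on day 1 (10.5 to 37.6 against 53.4 to 59.5 CPM) or day 7 (7.27 to 68.3 against 71.1 to 84.8 CPM).

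**Figure D5:**
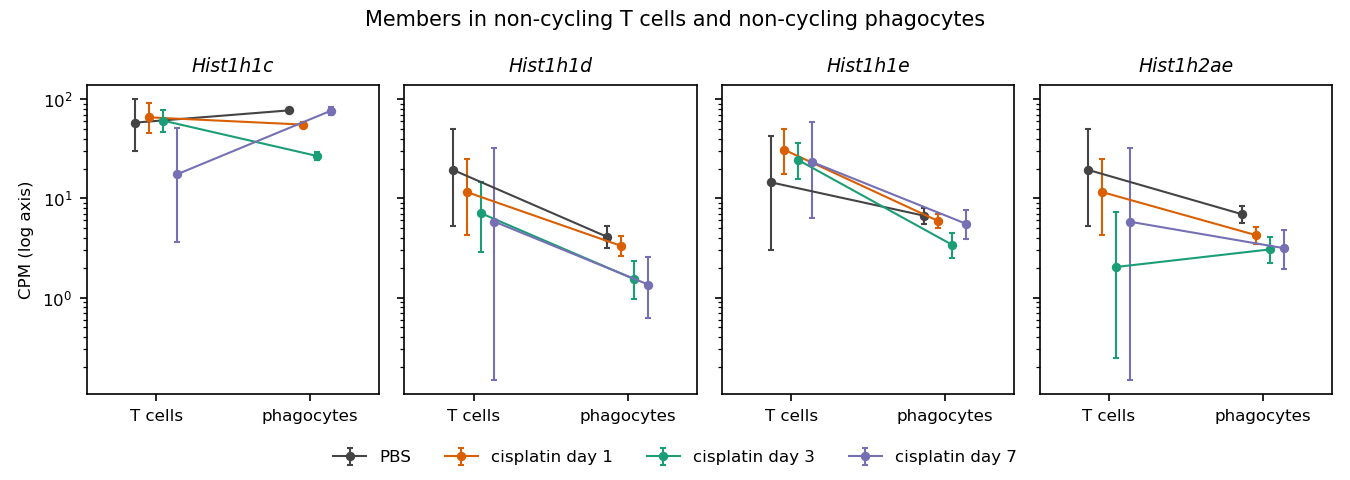
Level of 4 members in CPM (log axis) in non-cycling T cells and non-cycling phagocytes, 1 line per library, with exact Poisson 95% intervals. Hist1h1d and Hist1h1e are higher in T cells in 4 of 4 libraries, while Hist1h1c runs in opposite directions on day 3 and day 7.

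Cycling T cells numbered only 3, 5, 15 and 4 in PBS and on days 1, 3 and 7. No member reached the count filter of the test of cycling against non-cycling T cells, in which 0.777% of 1931 genes were called higher. Without the filter on low counts, Hist1h2ap was called higher in cycling T cells (log2 fold change 3.94 ± 0.87, adjusted p = 0.00166), as was Hist1h1b (2.86 ± 0.81, adjusted p = 0.0374).

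The genes around the members were described by lists in the test of cycling against non-cycling phagocytes. Over all 11314 genes of that test, 28.2% were called higher and 25.5% lower. Of 59 other core histone cluster genes in the files, 32 were tested, 22 were higher in cycling cells and 2 lower, with a median log2 fold change of 1.74. Hist1h2af and Hist1h2an, both H2A genes, had log2 fold changes of 5.92 ± 0.60 and 5.32 ± 0.65 (adjusted p = 2.33e-05 and 7.41e-05). Their non-cycling values were at most 0.0695 CPM for Hist1h2af and 0.127 CPM for Hist1h2an. Both passed the filter on low counts through their cycling sums alone, so these calls are not independent of that filter. Hist2h3c1 and Hist3h2a, an H3 gene and an H2A gene of other clusters, were lower (-1.64 ± 0.40 and -1.39 ± 0.20, adjusted p = 0.00568 and 0.000236).

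Of 10 replacement histone genes tested, 7 were higher and 1 lower, where 28.2% and 25.5% of all genes were. Among the higher ones were H2afx, whose protein is phosphorylated at DNA breaks (log2 fold change 3.04 ± 0.13), and the centromeric H3 gene Cenpa (2.18 ± 0.17). H2afj was lower (-0.34 ± 0.08). Of 10 genes for histone message processing, 9 were higher and 1 lower. Slbp, which binds the stem-loop, had 1.40 ± 0.11, Cstf2, a cleavage factor, 1.27 ± 0.13, and Lsm10, a part of the U7 particle, -0.66 ± 0.09. Of 20 histone chaperone and deposition genes, 18 were higher and 1 lower, with Asf1b at 4.18 ± 0.14, Chaf1a at 3.44 ± 0.17 and Daxx at -0.64 ± 0.15.

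Of 18 checkpoint and p53 genes, 13 were higher and 3 lower (28.2% and 25.5% of all genes). Ccne1 and Mcm7, both of S phase entry and replication, had 3.55 ± 0.19 and 3.22 ± 0.19, and Ccnd2, a D-type cyclin, and Cdkn1a, the p53 target p21, had -0.98 ± 0.17 and -0.44 ± 0.11. In cycling phagocytes Cdkn1a had 756 CPM on day 1, 908 CPM on day 3 and 418 CPM on day 7, against 266 CPM in PBS, and Slbp had 187, 177 and 184 CPM on these days, against 125 CPM in PBS. All list genes named here passed at an adjusted p under 0.05 in edgeR.

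Over 36 groups of cells that share libraries and differ in depth, members were ranked against 11325 genes by Spearman's rho, as a description. Hist1h1b and Hist1h2ab moved together (rho 0.68), as did Hist1h1b and Hist1h2ae (0.66), while Hist1h1c had a rho between -0.10 and 0.19 with the other members. The genes nearest to Hist1h1b were Prdx4 (0.78), Dgcr8 (0.75) and Spc24 (0.74), those nearest to Hist1h2ap were Pno1 (0.82), Ercc6l (0.80) and Cttn (0.78), and those nearest to Hist1h2ae were Fignl1 (0.76), Spc25 (0.76) and Cisd1 (0.75). Hist1h1c had lower values with its nearest genes, Map3k10 (0.62), St6gal1 (0.60) and 4930481A15Rik (0.60). Values of Hist1h1e were 0.73 with Sept11, 0.71 with Cstf2 and 0.67 with Tfrc. Hist1h1d had 0.67 with Rere, 0.65 with Rdm1 and 0.64 with Fntb. The sparse members Hist1h1a (Trim45 0.97, Ankle1 0.96, Kif14 0.92) and Hist1h2ab (Kif14 0.83, Odf2l 0.82, Bbs7 0.81) had at most 12 UMIs in every non-cycling phagocyte sum.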

How the data were processed

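Cells sorted from TC-1 tumours were profiled with the 10x 3' v3 kit, per the labels' protocols, in 4 libraries with 1 library per group. The authors deposited raw UMI counts per gene and barcode; Cell Ranger 3.1.0, Seurat 3.1.2 and build mm10 are named, without a role, per the submitters' processing notes. The 8 genes, the gene lists and the gates were chosen with earlier results of these data known. Named genes are the members, up to 2 of the highest and 2 of the lowest called genes of each list in the cycling comparison and the 3 nearest genes per member; Hist3h2a and Hist1h2ag are also given by day, chosen after their values were seen.

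Barcodes needed 500 genes or more and no more than 10% mitochondrial counts, and 66 to 650 cells per library with the top Scrublet scores were left out, at a rate of 0.8% for each 1000 barcodes, because the automatic threshold marked 0 or 1 cell per library and had not worked. Cells were classed by marker UMIs. Sums per library and state (8 sums per test) were tested with edgeR 4.0.16 (quasi-likelihood test, Benjamini-Hochberg adjustment over all genes tested, library as block); DESeq2 1.42.0 was an alternative. The block pairs sums of the same library. Day ratios have no test, only exact 95% intervals for counting error. UMIs limit double counting of PCR copies, but intervals and floors (3 counts) still cover counting error only. On simulated counts, 2-fold changes were recovered in 80% of changed genes for cycling against non-cycling phagocytes, 69% for S-leaning against M-leaning cells, 55% for T cells against phagocytes and 28% for cycling against non-cycling T cells. Alternatives were other scaling, filters, gates, no block, doublets kept and leaving out each library.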

Additional observations from a re-analysis of the deposited data

Results flagged for a closer look

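Hist1h1c differed in direction between libraries in 2 comparisons, and neither difference between libraries was tested. Its log2 ratio of cycling over non-cycling phagocytes was 0.44 in PBS, -1.59 on day 1, 0.80 on day 3 and 0.32 on day 7, so day 1 ran opposite to the other libraries. On day 3, 32 of the 78 Hist1h1c UMIs in cycling phagocytes came from 1 cell. The log2 ratio of Hist1h1c in non-cycling T cells over non-cycling phagocytes was 1.18 on day 3 (60 UMIs in T cells) and -2.13 on day 7 (3 UMIs in T cells).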

How the results depend on the processing

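Of 925 values recomputed under an alternative, 864 kept their direction and side of the threshold or moved by less than their error. For cycling against non-cycling phagocytes, the log2 fold change of Hist1h1c was 0.12 without the library block that pairs the sums and -0.31 to 0.36 when leaving out 1 library. The number of members lower in S-leaning than in M-leaning cells was 6 without a filter, 1 without the block, 5 with a ratio of 3 for a lean and 1 to 5 when leaving out 1 library. Hist1h1c in T cells over phagocytes was -0.19 with DESeq2, -0.012 without a filter, -0.30 without the block and -0.50 to 0.33 when leaving out 1 library. For cycling T cells 2 members were called higher without a filter and 4 when T cells were kept whatever their phagocyte UMIs. In cycling phagocytes on day 1, 5 members were 1.5-fold lower with TMM scaling, DESeq2 size factors, looser cell filters or S-leaning cells only. The shares of all genes called lower were 8.23%, 7.43%, 4.22% and 7.21% in the same order. On day 3 S-leaning cells only gave 4 (19.0% of genes), with Hist1h1d at 0.54, and on day 7 they gave 1 member higher (20.3% of genes). The restriction to S-leaning or M-leaning cells was chosen after seeing the data. The cause was not tested. Hist1h1b in T cells could not be fitted without PBS. Depth limits the T cell and Hist1h2ab values, which rest on few UMIs.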
